A study of Mus musculus with 4 samples.

Results

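The genes described here encode the matrix metalloproteinases (*Mmp*), the ADAM and ADAMTS proteases and the tissue inhibitors of metalloproteinases (*Timp*). They were chosen by symbol alone, from loci of the deposited table named *Mmp*, *Adam*, *Adamts* or *Timp* followed by a number and, in some, a letter. The families are not covered in full, and shares and sums below refer to the genes analysed here. These were 77 genes, 23 *Mmp*, 32 *Adam*, 19 *Adamts* and 3 *Timp*, among 22483 loci with a gene name and 30506 loci in all. Each of the 77 symbols was found at a single locus.

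Poly(A) RNA was sequenced from mammary glands of 4 mice, 2 with an intact *miR-21* gene (*miR-21+/+*) and 2 lacking it (*miR-21-/-*). All were 2 months old and of the mixed strain 129SV::FVB/N::C57BL/6. Mature *miR-21* is not measured in poly(A) RNA, so no value used here checks the genotype labels. Levels are in FPKM, read numbers divided by transcript length and by the size of the library, which can be compared between genes because they are per length. The table gives 1 value per genotype that combines its 2 mice, so the spread between mice is not visible. The depth of the libraries is unknown, no test was possible, and every difference below is a ratio of 2 values with no replicate check. Where a gene is given with 2 levels, the first is that of *miR-21+/+* and the second that of *miR-21-/-* glands. Ratios are log2 of the *miR-21-/-* over the *miR-21+/+* FPKM without a pseudocount. The comparison asks how the gland's transcripts differ when *miR-21* is absent.

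MMPs are zinc enzymes that cut collagens, proteoglycans and other extracellular proteins. They are made as inactive precursors, and a cysteine of the propeptide blocks the zinc until it is displaced. ADAMs are mostly membrane proteins that release the outer part of growth factors, cytokines and receptors, while ADAMTS enzymes are secreted and act on proteoglycans and procollagens. TIMPs bind the active site of these enzymes. In the mammary gland, proteases of these families are known from duct elongation, branching and involution.

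Of the 77 genes, 41 had a mean of the 2 genotype values above 1 FPKM, namely 12 *Mmp*, 12 *Adam*, 14 *Adamts* and 3 *Timp*. Among these 41, 4 were at least 1.5-fold higher in *miR-21-/-* glands and 10 were at least 1.5-fold lower. Among all 13305 named loci above 1 FPKM, 5.04% were at least 1.5-fold higher and 5.84% at least 1.5-fold lower. At 2-fold or more, 1 gene was higher (*Mmp11*) and 3 were lower (*Timp1*, *Adam12* and *Mmp28*), beside 1.72% and 2.16% of all named loci. The median log2 ratio of the 41 genes was −0.02, beside −0.03 for all named loci. Their ratios lay on both sides of 0 in nearly equal numbers, 20 above and 21 below. The 2 genotype columns sum to different totals, 759295 FPKM for *miR-21+/+* and 1.1756e+06 FPKM for *miR-21-/-* over all loci. Over loci with a gene name the sums were 380567 and 355385 FPKM, so the higher *miR-21-/-* total lies in loci without a name. Scaling the columns to equal sums over all loci would shift every log2 ratio by −0.63. Under that scaling 17 of the 20 positive ratios turned negative, and those of *Mmp11*, *Adamts15* and *Adamts1* stayed positive. Scaling to equal sums over named loci shifts every ratio by 0.0988, which turned the direction of *Adamts17*, *Mmp23* and *Adam8*. At 1.5-fold or more, 0 genes were higher and 22 lower under the first scaling, and 6 were higher and 8 lower under the second. At 2-fold or more these counts were 0 and 12 under the first scaling. Under the second, 1 gene was 2-fold lower, with *Adam12* at −0.98 and *Mmp28* at −0.93.

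**Figure D1:**
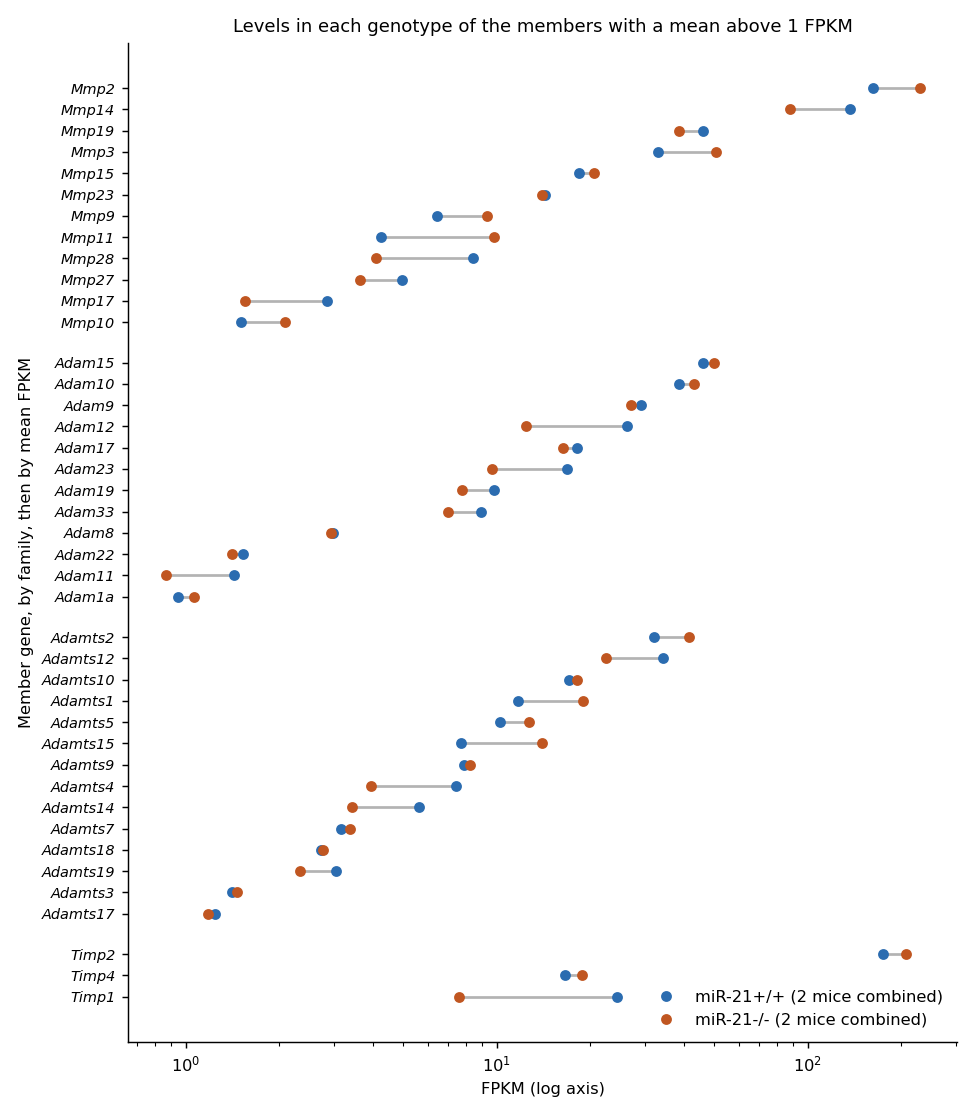
FPKM (log axis) of the 41 genes with a mean above 1 FPKM, ordered by family and then by level, with a blue point for *miR-21+/+* and an orange point for *miR-21-/-* glands, each the authors' value for 2 mice combined. *Mmp2*, *Timp2* and *Mmp14* stand above the rest, and the widest gap between the points is that of *Timp1*.

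The zinc-binding motif is the part of the active site that these proteases share, and its coding sequence is shown for genes of each family whose values are described below. The motif reads histidine, glutamate, any 2 residues, histidine, any 2, glycine, any 2 and histidine. It was searched in the translated longest coding sequence of each of the 74 protease genes. In each line the capitals are the codons of the first histidine, the glutamate, the second histidine and the glycine, or the asparagine that takes its place. The last histidine lies just beyond the bases printed. The sequences are those of GENCODE transcripts on mm9, written 5′ to 3′ along the gene's strand.
*Mmp2*, chr8:95363178-95363207, plus strand: CATGAGttcggcCATgccatgGGGctggaa
*Mmp14*, chr14:55056464-55056493, plus strand: CATGAGttggggCATgccctaGGCctggaa
*Mmp3*, chr9:7449775-7449804, plus strand: CATGAActtggcCACtccctgGGActctac
*Mmp11*, chr10:75389679-75389708, minus strand: CATGAAtttggcCATgttctgGGGctacaa
*Adam10*, chr9:70602103-70602132, plus strand: CATGAAgttggaCATaactttGGAtctcca
*Adam12*, chr7:141152844-141152873, minus strand: CATGAGctgggcCACaacttcGGGatgaac
*Adamts2*, chr11:50588905-50589633, plus strand: CACGAGacgggcCATgtgctgGGCatggag
*Adamts1*, chr16:85799439-85799790, minus strand: CATGAAttgggcCATgtgtttAACatgccg
*Adamts15*, chr9:30718843-30719275, minus strand: CATGAGctgggcCATgtgttcAACatgccc
*Adamts4*, chr1:173183341-173184043, plus strand: CATGAActgggcCATgtcttcAACatgctc

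The glycine form was found in 55 of the 74 genes, all 23 *Mmp*, 19 of 32 *Adam* and 13 of 19 *Adamts*. A form with asparagine in place of the glycine, searched after the first result was seen, was found in another 5, namely *Adamts1*, *Adamts4*, *Adamts9*, *Adamts15* and *Adamts20*. Apart from *Adamts20*, at 0.567 and 0.533 FPKM, these were above 1 FPKM. Neither form was found in 14 genes, among them *Adamts8*, which is known as a protease, so the lack of a match says only that these letters were not found. Of these, the only ones above 1 FPKM were *Adam11*, *Adam22* and *Adam23*, which are known as adhesion proteins without protease activity. The codons of the motif before the last histidine were split by an intron in all 18 *Adamts* genes that have either form. They were split in none of the 23 *Mmp* and 19 *Adam* genes, and the codon of the last histidine was not checked. The *Adamts* intervals above therefore span an intron. The cysteine switch of the propeptide (proline, arginine, cysteine, glycine, any residue, proline, aspartate) was found in 17 of the 23 *Mmp* genes, and in 7 of the 12 above 1 FPKM. Here too, a gene without a match lacks only this exact string, and variants of it were not searched.

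Of the inhibitors analysed, *Timp1* had the largest difference of all 41 genes. TIMP-1 is a secreted inhibitor of many MMPs and of ADAM10. *Timp1* was at 24.4 FPKM in *miR-21+/+* glands but at 7.59 FPKM in *miR-21-/-* glands, a log2 ratio of −1.69, or 3.22-fold lower. In its class of level, over 5 to 50 FPKM, 0.932% of 8154 named loci were at least 2-fold lower. *Timp2*, which both inhibits MMPs and takes part in the activation of pro-MMP2 by MMP14, was at 175 and 207 FPKM. *Timp4* was at 16.6 and 18.9 FPKM. The log2 ratios of *Timp2* and *Timp4* were 0.25 and 0.19, within 1.5-fold, and turned negative under equal sums over all loci. *Timp1* thus made up 11.3% of the summed FPKM of the 3 inhibitors analysed in *miR-21+/+* glands and 3.25% of that in *miR-21-/-* glands. The ratio of *Timp2* to *Timp1* within a genotype, which no scaling of the columns can alter, was 7.15 and 27.3.

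*Timp1* and *Timp4* both lie inside a synapsin gene on the opposite strand. *Timp1* (chrX:20447292-20451861, plus strand) shares no exon base with *Syn1*, whose locus was at 0.378 and 0.370 FPKM. The deposited *Timp1* locus is wider, at 72376 bp, and also spans *Araf* on the same strand, which has its own value. *Timp4* (chr6:115195634-115201867, minus strand) shares no exon base with *Syn2*, at 4.01 and 6.94 FPKM. The library preparation is not stated to mark strand, so reads from introns of the host gene cannot be told apart from those of the inhibitor.

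The gelatinases, which cut denatured collagen and basement membrane collagen, were both higher in *miR-21-/-* glands, but by less than 1.5-fold. *Mmp2* was the most abundant of the 77 genes by the mean of both genotypes, although *Timp2* was above it in *miR-21+/+* glands. It was at 162 and 229 FPKM, a log2 ratio of 0.50. *Mmp9* was at 6.45 and 9.32 FPKM, a log2 ratio of 0.53. Both gelatinases were thus just inside the 1.5-fold limit, and their ratios turned negative under equal sums over all loci.

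The stromelysins, which cut proteoglycans, fibronectin and laminin and can activate other MMPs, included *Mmp3* and *Mmp10*. *Mmp3* was at 33.1 and 50.8 FPKM, a log2 ratio of 0.62, just past 1.5-fold, which became −0.01 under equal sums over all loci. *Mmp10* was at 1.51 and 2.09 FPKM (log2 ratio 0.48). *Mmp11*, stromelysin-3, is known from stromal fibroblasts and is cut to its active form by furin inside the cell. It was at 4.26 and 9.81 FPKM, a log2 ratio of 1.21. This was the highest ratio of the 41 genes, and 1.01% of named loci over 5 to 50 FPKM were at least 2-fold higher. The annotated *Mmp11* gene overlaps *Chchd10* on the opposite strand, with no shared exon base. *Chchd10* was at 69.5 and 40.6 FPKM, a difference in the other direction. *Mmp11* also shares 73 of its 2645 exon bases with *Gm867* on its own strand, which has no value here. The deposited *Mmp11* locus is shorter than the annotated gene and overlaps neither *Chchd10* nor *Gm867*. Matrilysin *Mmp7* and macrophage elastase *Mmp12* were under 1 FPKM, at 0.0501 and 0.0242 and at 0.403 and 0.527 FPKM. None of the 4 collagenases reached 1 FPKM. *Mmp13* was at 0.128 and 0.236 FPKM, *Mmp8* at 0.0428 and 0.0628 FPKM, and *Mmp1a* and *Mmp1b* were listed at 0 in both genotypes.

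Of the 6 membrane-type MMPs, 3 were above 1 FPKM. *Mmp14*, which cuts fibrillar collagen at the cell surface and activates pro-MMP2, was at 137 and 87.9 FPKM, a log2 ratio of −0.64. Among 1247 named loci over 50 FPKM, 6.98% were at least 1.5-fold lower. *Mmp17*, a membrane-type enzyme with a lipid anchor, was at 2.84 and 1.56 FPKM (log2 ratio −0.87), and *Mmp15* was at 18.4 and 20.6 FPKM (0.16). *Mmp16*, *Mmp24* and *Mmp25* were all under 1 FPKM. *Mmp2* made up 36.7% of the summed *Mmp* FPKM in *miR-21+/+* glands and 48.5% of that in *miR-21-/-* glands. The shares of *Mmp14* were 31.0% and 18.6%. The ratio of *Mmp2* to *Mmp14* within a genotype was 1.18 and 2.61. Under equal sums over all loci the log2 ratios of both were negative, −0.13 and −1.27, and under equal sums over named loci *Mmp14* was at −0.54, within 1.5-fold.

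Of the other MMPs, *Mmp28* had the largest difference. *Mmp28*, epilysin, is known from keratinocytes and was at 8.38 and 4.10 FPKM (log2 ratio −1.03). It shares 465 of its 3874 exon bases with *1700020L24Rik* on the opposite strand, whose locus was at 5.48 and 2.89 FPKM, and without strand the reads of the shared bases cannot be told apart. *Mmp23* was at 14.3 and 14.0 FPKM (−0.03). *Mmp27* was at 4.97 and 3.64 FPKM (−0.45). *Mmp19* was at 46.3 and 38.6 FPKM (−0.26), but it shares a locus with *Dnajc14* in the table and the authors' program flagged it as failed. It also shares 789 of its 3410 exon bases with *1110012D08Rik* on the opposite strand, at 7.88 and 6.43 FPKM. Over all 23 *Mmp* genes the FPKM summed to 441 and 473. The median log2 ratio of the 12 above 1 FPKM was 0.06, which became −0.57 under equal sums over all loci.

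**Figure D2:**
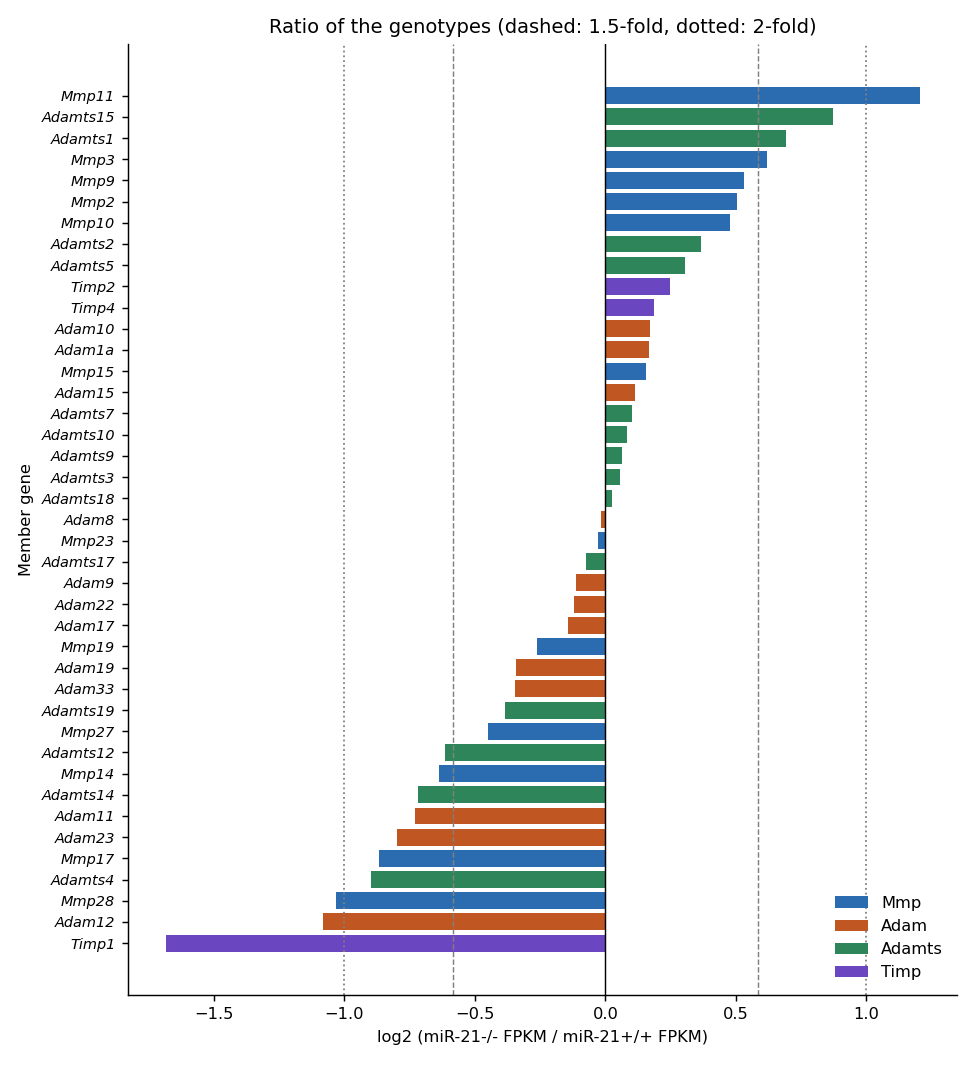
Log2 ratio of *miR-21-/-* over *miR-21+/+* FPKM for the 41 genes above 1 FPKM, sorted and coloured by family, with dashed lines at 1.5-fold and dotted lines at 2-fold. Bars reach from −1.69 for *Timp1* to 1.21 for *Mmp11*, with 10 below the lower and 4 above the upper 1.5-fold line; equal sums over all loci would shift every bar by −0.63.

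Among the *Adam* genes above 1 FPKM, 0 of 12 were 1.5-fold higher and 3 were 1.5-fold lower, beside 5.04% and 5.84% of all named loci. Of the 8 ADAM proteases above 1 FPKM grouped here as widely expressed, only *Adam12*, described below, passed 1.5-fold. *Adam10*, the main sheddase of Notch receptors and cadherins, was at 38.5 and 43.3 FPKM (log2 ratio 0.17, negative under equal sums over all loci). *Adam17*, which releases TNF and, in the mammary gland, the EGF receptor ligand amphiregulin, was at 18.1 and 16.4 FPKM (−0.14). *Adam9* was at 29.2 and 27.0 FPKM (−0.11). Under equal sums over all loci *Adam17* became −0.77, and both *Adam17* and *Adam9* passed 1.5-fold lower. *Adam15* was at 46.1 and 49.9 FPKM (0.11, negative under equal sums over all loci) on a locus shared with *Dcst1*. *Adam17* shares 97 of its 7154 exon bases with *Iah1* on the opposite strand.

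*Adam12*, a protease of mesenchymal cells and muscle precursors, differed from *Adam10*, *Adam17*, *Adam9* and *Adam15*. It was at 26.3 and 12.5 FPKM, a log2 ratio of −1.08, or 2.12-fold lower. The ratio of *Adam10* to *Adam12* within a genotype was 1.46 and 3.48. *Adam19*, its close relative, was at 9.84 and 7.77 FPKM (−0.34), and *Adam33* was at 8.88 and 6.99 FPKM (−0.35) with a failed flag. *Adam8*, known from leukocytes, was at 2.97 and 2.94 FPKM (−0.02) on a locus shared with *6430531B16Rik*. *Adam28*, known from lymphocytes, was under 1 FPKM, at 0.403 and 0.409 FPKM.

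The 3 adhesion ADAMs without the zinc-binding motif all had lower values in *miR-21-/-* glands, and 2 of them were past 1.5-fold. Of all 13305 named loci above 1 FPKM, 7408 had lower values and 5.84% were at least 1.5-fold lower. Among named loci over 1 to 5 FPKM, the class of *Adam11* and *Adam22*, the latter share was 10.9%. *Adam23* was at 16.9 and 9.70 FPKM (log2 ratio −0.80). *Adam11* was at 1.43 and 0.863 FPKM (−0.73), which became −0.38 and within 1.5-fold with a pseudocount of 1 FPKM. *Adam22* was at 1.53 and 1.41 FPKM (−0.12). These 3 ADAMs are known as receptors of the secreted LGI proteins in nerve tissue. Of the LGI genes above 1 FPKM, *Lgi2* was at 2.17 and 4.27 FPKM (0.98) and *Lgi4* at 3.94 and 4.14 FPKM (0.07, negative under equal sums over all loci).

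The 20 *Adam* genes known mainly from testis and epididymis were nearly silent. *Adam1a* passed 1 FPKM by little, at 0.947 and 1.06 FPKM, and it shares 771 of its 3092 exon bases with *Mapkapk5* at 14.0 and 13.3 FPKM. Summed over the 20 genes the levels were 2.62 and 2.47 FPKM. *Adam26a*, *Adam26b*, *Adam29* and *Adam34* were listed at 0 in both genotypes. The 5 male germ cell markers were also near 0, with sums of 0.436 and 0.397 FPKM. *Adam1a* and *Adam1b*, and *Adam6a* and *Adam6b*, are pairs of similar genes whose reads may be shared, so their values are uncertain. Over all 32 *Adam* genes the FPKM summed to 203 and 182, and the median log2 ratio of the 12 above 1 FPKM was −0.13.

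The *Adamts* genes that cut aggrecan and versican differed in both directions. *Adamts1*, which is induced by progesterone in the ovary and cuts versican, was at 11.7 and 19.0 FPKM (log2 ratio 0.69). *Adamts15* was at 7.66 and 14.0 FPKM (0.87). *Adamts5*, the main aggrecanase of mouse cartilage, was at 10.3 and 12.7 FPKM (0.30, negative under equal sums over all loci). *Adamts4*, another aggrecanase, was at 7.38 and 3.96 FPKM (−0.90), so the ratio of *Adamts1* to *Adamts4* within a genotype was 1.59 and 4.79. *Adamts9* was at 7.87 and 8.22 FPKM (0.06) with a failed flag. Of its 12527 exon bases, 1381 are shared with *A730049H05Rik* and 424 with *Gm15737*, both on the opposite strand and without a value here. *Adamts1* and *Adamts15* were thus higher and *Adamts4* lower, although all of these carry the asparagine form of the motif shown above. Their substrate versican, *Vcan*, was at 22.5 and 10.1 FPKM (−1.15), and aggrecan, *Acan*, was at 0.00543 and 0.0147 FPKM.

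The procollagen-processing enzymes were led by *Adamts2*, which removes the amino-terminal propeptide of fibrillar collagens. *Adamts2* was at 32.2 and 41.5 FPKM (log2 ratio 0.37, negative under equal sums over all loci). *Adamts14*, with the same activity, was at 5.63 and 3.42 FPKM (−0.72), and *Adamts3* at 1.41 and 1.46 FPKM (0.06). The ratio of *Adamts2* to *Adamts14* within a genotype was 5.72 and 12.2. *Adamts12*, which cuts cartilage oligomeric matrix protein, was at 34.4 and 22.5 FPKM (−0.61), just past 1.5-fold, and at −0.51 and within it under equal sums over named loci. Its relative *Adamts7* was at 3.16 and 3.39 FPKM (0.10) with a failed flag. *Adamts7* shares 122 of its 6373 exon bases with *Tbc1d2b* on the opposite strand, at 17.5 and 15.5 FPKM. The deposited *Adamts7* locus is shorter than the annotated gene and does not reach *Tbc1d2b*. *Adamts10*, known from fibrillin microfibrils, was at 17.1 and 18.1 FPKM (0.08). The remaining *Adamts17*, *Adamts18* and *Adamts19* were between 1 and 5 FPKM and within 1.5-fold. *Adamts13*, the von Willebrand factor protease of the liver, was at 0.0635 and 0.00491 FPKM. Over all 19 *Adamts* genes the FPKM summed to 149 and 157. The median log2 ratio of the 14 above 1 FPKM was 0.06 and became −0.57 under equal sums over all loci.

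**Figure D3:**
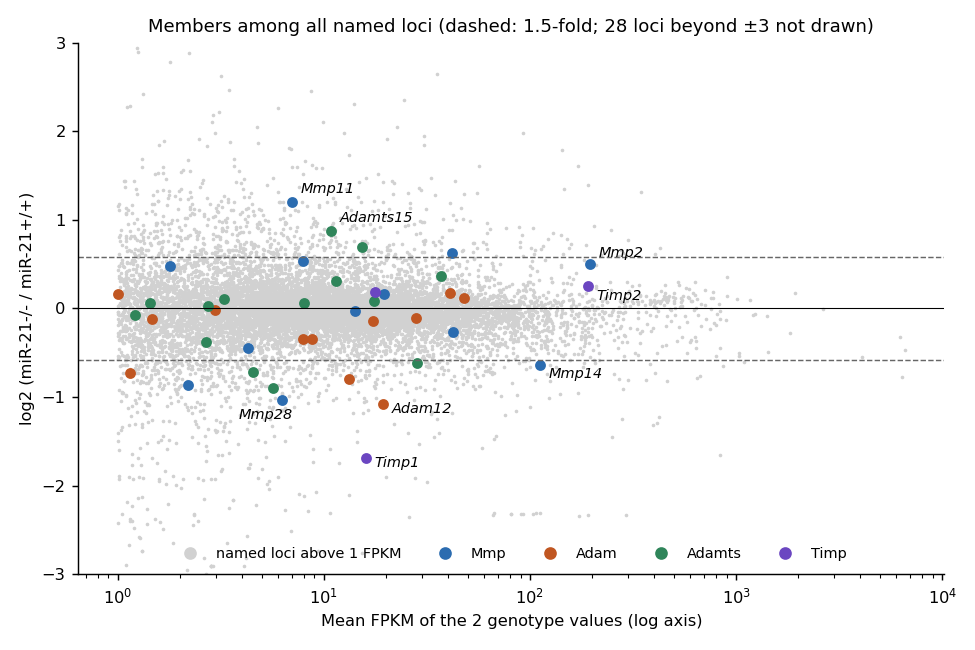
Mean FPKM of the 2 genotype values (log axis) against the log2 ratio of *miR-21-/-* over *miR-21+/+* for named loci above 1 FPKM (grey) and the 41 family genes (coloured), with dashed lines at 1.5-fold. *Timp1*, *Adam12* and *Mmp28* lie below −1 and *Mmp11* above 1. The 28 loci with a finite ratio beyond 3 on either side are not drawn. Loci with an infinite ratio are also not drawn and not in that count. Equal sums over all loci would shift every point by −0.63.

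By level, 25 of the 41 genes lay over 5 to 50 FPKM. In this class 4 genes (16%) were at least 1.5-fold higher and 6 (24%) at least 1.5-fold lower, beside 3.2% and 3.25% of the 8154 named loci of the same class. Of the 13 genes over 1 to 5 FPKM, 0 were 1.5-fold higher and 3 (23.1%) were 1.5-fold lower, beside 9.25% and 10.9% of 3904 named loci. Of the 3 genes over 50 FPKM, 0 were 1.5-fold higher and *Mmp14* was lower, beside 3.93% and 6.98% of 1247 named loci. The lowest gene that passed 1 FPKM was *Adam1a*, and the highest that did not was *Adamts6*, at 1.07 and 0.761 FPKM. Of the 36 genes at or under 1 FPKM, 23 were at or under 0.1 FPKM, 6 were listed at 0 in both genotypes and 5 in *miR-21-/-* glands only.

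Many of these genes lie in clusters, here runs of family genes on a chromosome with gaps of at most 1 Mb. On chromosome 9, from 7272514 to 7699416, 10 *Mmp* genes follow each other. Of these, *Mmp3*, *Mmp10* and *Mmp27* were above 1 FPKM, and the neighbours of *Mmp3*, *Mmp1b* and *Mmp1a*, were listed at 0. On chromosome 8, from 25712718 to 26127394, 5 *Adam* genes form a run in which *Adam9* was at 29.2 and 27.0 FPKM and the other 4 were under 0.47 FPKM. Along chromosome 16, *Adamts1* and *Adamts5* are neighbours and both had positive ratios. The same held for *Adamts15* and *Adamts8* on chromosome 9, with *Adamts8* at 0.555 and 0.825 FPKM. Levels thus differed widely within the runs around *Mmp3* and *Adam9* and were close for *Adamts1* and *Adamts5*. The runs and pairs named here were picked with their values in view.

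Of 60 other genes of the protease network (activators, other inhibitors, partners, relatives and substrates), 38 were above 1 FPKM. Of these, 2 were at least 1.5-fold higher and 3 at least 1.5-fold lower, beside 5.04% and 5.84% of all named loci, so both shares were near those of all loci. Their median log2 ratio was 0.14, beside −0.03 for all named loci. None of the 9 activators passed 1.5-fold in either direction, beside 10.9% of all named loci, a share at which a list of this size would hold few or none. *Furin*, which cuts the propeptide of MMP11, of membrane-type MMPs and of ADAMs, was at 22.4 and 24.4 FPKM (0.12). *Plat*, the tissue plasminogen activator and the most abundant of the activators, was at 35.1 and 26.1 FPKM (−0.43), and *Plau*, the urokinase, was at 22.4 and 30.5 FPKM (0.44). The nearest activator to the limit was *St14*, the epithelial protease matriptase, at 12.6 and 18.7 FPKM (0.57). Of the 7 other inhibitors above 1 FPKM, *Spint2*, the most abundant, was at 53.8 and 76.6 FPKM (0.51). *Reck*, a membrane-anchored inhibitor of MMPs, was at 12.4 and 15.8 FPKM (0.35). The positive ratios of *Furin*, *Plau*, *St14*, *Spint2* and *Reck* all lie below the shift of equal sums over all loci and turn negative with it. With the same shift the activators *Plat* and *Plaur* pass 1.5-fold lower.

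None of the 7 ADAM partners, 5 ADAMTS-like genes and 3 related metalloproteinases above 1 FPKM passed 1.5-fold, and these lists too are short beside that share of 10.9%. This depends on the scaling. With the shift of −0.63 under equal sums over all loci, all 3 related metalloproteinases pass 1.5-fold lower, as do *Tspan14* and others of these lists. The ADAM10 partner *Tspan14* was at 30.4 and 29.2 FPKM (−0.06). Of the ADAMTS-like genes *Papln* was the most abundant, at 15.1 and 16.8 FPKM with a failed flag. Neprilysin, *Mme*, was at 38.4 and 26.5 FPKM (−0.53), also with a failed flag. Of the 7 substrates or carriers, *Vcan* and fibronectin, *Fn1*, were lower, and elastin, *Eln*, and *Lgi2* were higher. *Fn1* was at 380 and 217 FPKM (−0.81) with a failed flag, and *Eln* at 42.1 and 82.0 FPKM (0.96).

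A match to the seed of miR-21 was looked for in the 3′ UTR of each gene, the longest one annotated, since this is the feature by which a microRNA could act on these transcripts directly. The mature miR-21 sequence (RefSeq) is shown first with its seed, bases 2 to 8, in capitals. Below it are the sites of the family gene above 1 FPKM that had one and of *Reck* and *Pcsk6*, the network genes whose site is of the longer type. The bases that pair with the seed, and the A that follows them in the longer type, are in capitals.
mmu-miR-21a-5p: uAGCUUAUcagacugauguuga
*Timp2*, chr11:118163654-118163660, minus strand: cctgcgtcttaaaaaATAAGCTg
*Reck*, chr4:43957279-43957286, plus strand: gttttacagtttgaaATAAGCTA
*Pcsk6*, chr7:73194918-73194925, plus strand: ctgtgtgggcattttATAAGCTA

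The 7 bases ATAAGCT, searched on the transcribed strand of mm9, were found in 4 of the 76 family genes with an annotated 3′ UTR (5.26%), beside 6.1% of all 19915 such genes. Among the 41 genes above 1 FPKM, *Timp2* alone had a match (2.44%), beside 6.96% of 12835 genes above 1 FPKM. The other 3 matches were in *Adamts6*, *Adamts20* and *Adam7*, all under 1 FPKM. Of the network genes, *Pappa2*, *Spock2* and *Thsd4* also had the 7 bases. *Pcsk6*, a protease that activates other enzymes, was at 16.3 and 18.4 FPKM (0.18, negative under equal sums over all loci). None of the 14 family genes past 1.5-fold had these 7 bases, but at the share of 6.96% a set of this size would hold few or none. Shorter or shifted matches to the seed, and 3′ UTRs other than the longest, were not searched. A match is a run of letters and does not show that miR-21 binds there.

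Markers of the cell types in the tissue also differed between the genotypes, and their part in the values above was not tested. In a whole gland, fewer cells of a type and less RNA per cell cannot be told apart. All 8 luminal and all 6 basal epithelial markers had positive ratios, with medians of 0.52 and 0.73, and the summed levels were 644 and 875 FPKM and 115 and 202 FPKM. All 6 skeletal muscle markers were positive too, with a median of 0.79 and sums of 1023 and 1690 FPKM. With equal sums over all loci the luminal median turned negative and the basal and muscle medians stayed above 0. The adipocyte sums were 10930 and 7999 FPKM, with 5 of 6 genes negative and *Lep* past 1.5-fold higher. All 6 T cell markers were at least 1.5-fold lower, with sums of 36.9 and 8.36 FPKM, as were 5 of 6 B cell markers, the exception being *Cd79a*, which shares a locus with *Arhgef1*. None of the 7 fibroblast, 5 endothelial, 7 macrophage and 4 mast cell markers passed 1.5-fold, and the sums were 4982 and 4409 FPKM for fibroblasts, 134 and 139 FPKM for endothelium, 774 and 775 FPKM for macrophages and 108 and 124 FPKM for mast cells. Of 4 Schwann cell markers *Sox10* was past 1.5-fold higher and the other 3 had negative ratios. Of the 8 neutrophil markers found, 5 were above 1 FPKM, of which 4 had negative ratios, although the sums of all 8 were 13.2 and 16.6 FPKM.

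**Figure D4:**
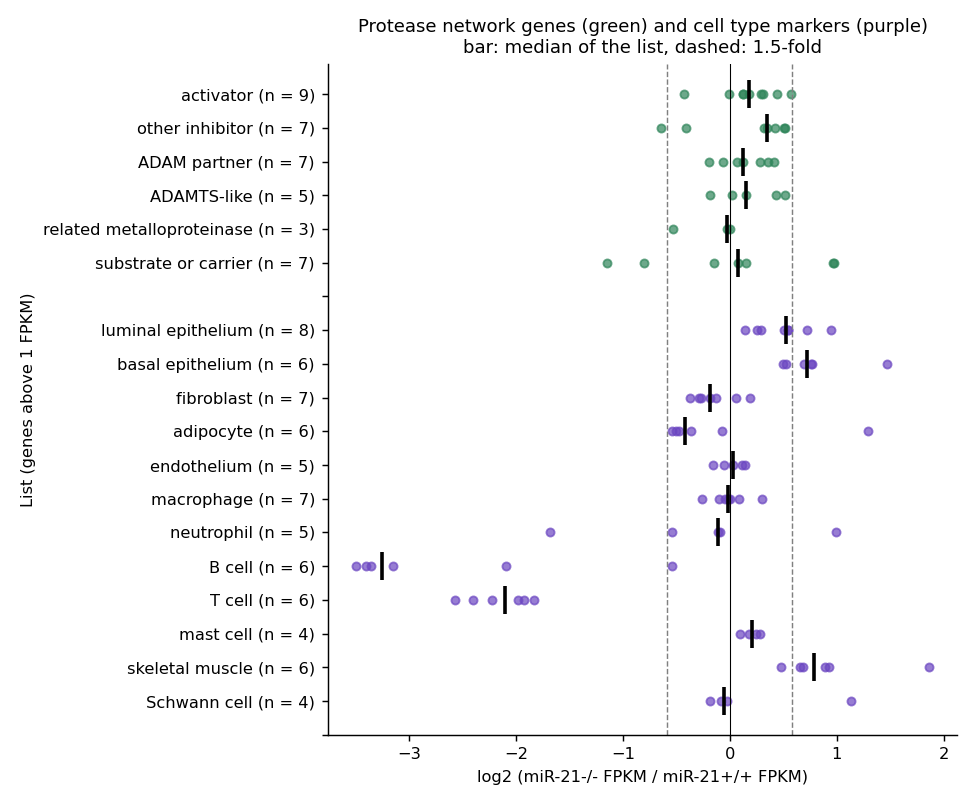
Log2 ratio of *miR-21-/-* over *miR-21+/+* FPKM for each gene above 1 FPKM of the protease network lists (green) and the cell type marker lists (purple), with a bar at the median of each list and dashed lines at 1.5-fold. B and T cell markers lie farthest to the left and epithelial and muscle markers to the right of 0, while most network genes lie within 1.5-fold; equal sums over all loci would shift every point by −0.63, which turns the luminal median of 0.52 negative.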

How the data were processed

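Poly(A) RNA of 4 mammary glands was sequenced as single-end Illumina reads. TopHat alignments to mm9 were made by the authors, who estimated FPKM values with Cufflinks and deposited a Cuffdiff table with 1 FPKM value per genotype and locus. Versions, annotation and normalization options are not given in the sources used here. The deposited fold changes, test statistics, p-values and q-values are the authors' own comparison and were not used. Their status flag was read as a mark of quality. Depth is unknown, so no interval was computed.

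Loci were taken as deposited, with 1 added to each start, since 7398 GENCODE gene starts matched after that and 424 as printed. A gene above 1 FPKM (mean of the 2 values) was counted when it was at least 1.5-fold or 2-fold higher or lower. Genes named are those of at least 5 FPKM or past 1.5-fold, all inhibitors, and the network genes past 1.5-fold or highest in their list, of which 1 is not reported here. Others, such as *Mmp10* or *Reck*, were named after their values were seen. Genes and lists were chosen with earlier results of these data known. The ratio code was tested on simulated data without noise, in which 200 changes past 1.5-fold were planted among 13305 loci. All 200 were recovered, which checks the arithmetic and not how well real changes are found. The motif search was tested on a planted and a broken motif. Python 3.11.15, numpy 2.4.6, pandas 2.3.3 and matplotlib 3.10.9 were used. The alternatives were other pseudocounts, minimums and scalings, loci summed per name, and merged or failed loci left out.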

Additional observations from a re-analysis of the deposited data

How the results depend on the processing

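No paired analysis was possible because the deposited values combine the mice of a genotype, and for the same reason no mouse could be left out in turn. With depth unknown, the precision of low FPKM values could not be given. Of 41 genes, 4 were at least 1.5-fold higher and 10 lower, and 1 and 3 at 2-fold. With equal sums over all loci these counts were 0 and 22 at 1.5-fold and 0 and 12 at 2-fold. The medians were then −0.65 for all genes, −0.57 for *Mmp*, −0.76 for *Adam*, −0.57 for *Adamts* and −0.44 for *Timp*, and *Mmp3* turned to −0.011, all by the shift of −0.63 that this scaling gives every gene. With equal sums over named loci 1 gene was 2-fold lower. With every gene above 0 in both genotypes and no minimum, the counts were 7 higher and 16 lower at 1.5-fold and 3 and 8 at 2-fold, and the *Mmp* median was 0.22, because more low genes were counted. With a minimum of 5 FPKM the median was −0.24 for *Adam* and 0.19 for *Adamts*, and without merged loci it was −0.24 for *Adam*, from fewer genes. A pseudocount of 1 FPKM moved 7 of 31 named genes by over 0.1 and turned none. Equal sums over named loci, a pseudocount of 0.1 FPKM, centring on the median of named loci, summing loci per name and leaving out failed loci moved no named gene by over 0.1 and, apart from the count just given, no count by over 1.5 times.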
